A study of Mus musculus with 27 samples.

Results

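The genes described are the 36 aminoacyl-tRNA synthetase genes that were listed by name, 20 for cytosolic enzymes and 16 for mitochondrial enzymes, whose symbols end in 2, of 37991 genes in each file. The list was chosen by enzyme name, and Lars2 was singled out on its measured level, which ranked 6 of all genes by mean TPM, so the level of Lars2 is given as a description with no test. All 36 genes were found in every file, and all 36 passed the filter on low counts.

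The RNA came from calvarial cells of mice aged between 5 and 9 days, of the strain C57BL/6J-Col3.6 CFP, in which a fragment of the type I collagen promoter drives cyan fluorescent protein. Cells were cultured for 4 days, sorted for CFP and cultured again with ascorbic acid and β-glycerol phosphate, which induce osteoblast differentiation, and RNA was taken every 2 days from day 2 to day 18, which gives 9 days. Each day was deposited as 3 profiles that carry 1 barcode and come from separate sequencing lanes, so the 3 profiles of a day were counted as 1 sample, a day has no replicate culture, and the p-values below measure the scatter of 9 libraries around a straight line in day. The sort was made once, before the culture, and the Col3.6 promoter does not by itself mark mature osteoblasts.

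The total count per day was between 22470195 and 62009157 counts, so that even the member with the fewest reads, Sars2, had 39 to 178 counts a day. The summed level of 9 osteoblast markers was between 3000 and 5280 TPM on days 2 to 6 and between 7618 and 9293 TPM on days 14 to 18. By the line in day described below 6 of the 9 rose, where 28.3% of all genes tested rose and 26.1% fell. Most of the sum was Col1a1 and Col1a2, at 1526 and 983 TPM on day 2 and 4263 and 4114 TPM on day 18. Sp7, Alpl and Spp1 were not called, with fitted log2 changes of -1.23, 2.22 and -1.17. Sp7 had 32.3 TPM on day 2 and at most 10.6 TPM on any later day. Markers of other cells moved as well. The summed level of 5 proliferation markers was between 269 and 321 TPM on days 2 to 6 and between 67.6 and 85.9 TPM on days 14 to 18, and all 5 fell. The summed level of 7 monocyte and macrophage markers was between 24.1 and 61.7 TPM early and between 522 and 2014 TPM late, and 6 of 7 rose, while 5 of 5 adipocyte markers rose, from 3.21 to 7.44 TPM early to between 188 and 407 TPM late when summed. The 4 endothelial markers summed to at most 12.0 TPM on any day, and Pecam1 was too low to be tested. Cdh5 and Tek rose, by fitted log2 changes of 1.91 and 2.97, and Kdr fell, by -3.27. The part of these changes in the results below was not tested, and in bulk RNA fewer cells of a type cannot be told apart from less RNA per cell.

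Aminoacyl-tRNA synthetases join each amino acid to the tRNA that carries it to the ribosome. Cells hold a cytosolic set, which serves the translation of nuclear genes, and a mitochondrial set, which is also encoded in the nucleus and serves the few proteins made inside mitochondria. In mammals several cytosolic synthetases sit together in a multi-synthetase complex held by the scaffold proteins Aimp1, Aimp2 and Eef1e1, and Eprs joins both glutamate and proline to their tRNAs. Gars and Kars each encode both the cytosolic and the mitochondrial form of their enzyme. Many genes of the cytosolic set are known targets of the transcription factor Atf4, which is made when amino acids run short and binds a C/EBP-ATF response element.

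Because the cytosolic genes moved together, their promoters were searched for the core of that element, TGATGNAA on one strand or TTNCATCA on the other, in the 250 bases before and 50 bases after the gene start in RefSeq (GRCm38.p6). The search was chosen after the courses had been seen. Of the 20 cytosolic genes 13 had a promoter in the table, and 5 of these, or 38.5%, held the letters, beside 4.51% of all 27025 genes with a promoter. Cars, Hars, Lars, Nars, Rars, Vars and Wars had none there and were not searched. Eprs, Mars and Sars, which are listed below as Atf4 targets, were searched and held no match. Of the 16 mitochondrial genes 14 had a promoter and 0 held the letters. The 5 promoters are shown with the match in capitals, and the promoter of Lars2, which holds no match, is shown because Lars2 stood apart in level. Aars is at chr8:111033592-111033891, plus strand, Gars at chr6:55037751-55038050, plus strand, Iars at chr13:49681880-49682179, plus strand, Tars at chr15:11399609-11399908, minus strand, Yars at chr4:129189653-129189952, plus strand and Lars2 at chr9:123366677-123366976, plus strand, all in GRCm38.p6 and all written 5′ to 3′ along the gene.
Aars: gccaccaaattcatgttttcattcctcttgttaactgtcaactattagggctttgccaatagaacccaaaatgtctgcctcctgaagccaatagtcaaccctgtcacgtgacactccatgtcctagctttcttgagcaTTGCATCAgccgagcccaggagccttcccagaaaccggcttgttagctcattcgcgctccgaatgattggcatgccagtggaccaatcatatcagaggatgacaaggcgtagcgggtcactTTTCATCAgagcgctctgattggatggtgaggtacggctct
Gars: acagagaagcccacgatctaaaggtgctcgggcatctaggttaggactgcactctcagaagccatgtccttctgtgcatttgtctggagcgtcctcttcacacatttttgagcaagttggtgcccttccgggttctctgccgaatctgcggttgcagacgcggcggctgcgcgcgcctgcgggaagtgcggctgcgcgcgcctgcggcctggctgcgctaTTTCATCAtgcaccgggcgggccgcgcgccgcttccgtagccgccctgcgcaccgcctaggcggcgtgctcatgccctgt
Iars: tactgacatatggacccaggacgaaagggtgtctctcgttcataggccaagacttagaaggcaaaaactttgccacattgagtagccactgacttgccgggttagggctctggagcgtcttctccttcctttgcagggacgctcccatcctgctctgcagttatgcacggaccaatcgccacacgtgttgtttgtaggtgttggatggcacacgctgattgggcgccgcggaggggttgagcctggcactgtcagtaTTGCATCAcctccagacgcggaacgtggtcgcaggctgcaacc
Tars: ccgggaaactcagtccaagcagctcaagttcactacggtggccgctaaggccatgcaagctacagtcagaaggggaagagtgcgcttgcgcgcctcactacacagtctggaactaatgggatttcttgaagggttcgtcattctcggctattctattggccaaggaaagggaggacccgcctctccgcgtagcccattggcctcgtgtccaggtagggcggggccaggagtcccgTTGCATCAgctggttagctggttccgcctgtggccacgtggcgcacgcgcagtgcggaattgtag
Yars: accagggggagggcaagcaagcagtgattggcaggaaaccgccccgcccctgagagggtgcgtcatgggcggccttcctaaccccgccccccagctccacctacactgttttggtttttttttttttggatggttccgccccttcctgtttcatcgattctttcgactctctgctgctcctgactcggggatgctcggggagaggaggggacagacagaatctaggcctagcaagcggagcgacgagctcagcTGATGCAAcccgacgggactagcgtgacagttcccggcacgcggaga
Lars2: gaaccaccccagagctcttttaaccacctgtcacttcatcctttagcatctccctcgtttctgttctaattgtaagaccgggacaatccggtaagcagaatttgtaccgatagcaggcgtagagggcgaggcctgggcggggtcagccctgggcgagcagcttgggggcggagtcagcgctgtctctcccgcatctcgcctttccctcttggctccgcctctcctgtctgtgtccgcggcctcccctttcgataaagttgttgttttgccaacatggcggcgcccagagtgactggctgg
With the first base of the gene as 1, the match began at base -112 and again at base 10 in Aars, at -30 in Gars, at 8 in Iars, at -15 in Tars and at 4 in Yars. A match describes these letters and does not show that a factor bound there.

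The cytosolic synthetases were expressed well above the mitochondrial ones, with Lars2 as the exception. Levels were compared per length, as TPM scaled to the upper quartile of each profile, and averaged over the 9 days. The 20 cytosolic means ran from 12.5 TPM for Farsa, the catalytic subunit for phenylalanine, to 92.4 TPM for Nars, the asparagine enzyme, with a median of 40.9 TPM. The 15 mitochondrial means other than that of Lars2 ran from 1.75 TPM for Aars2 to 13.3 TPM for Iars2, with a median of 4.75 TPM, and 14 of the 15 were below the lowest cytosolic mean. Iars2, at 13.3 ± 1.40 TPM (SD over 9 days), and Farsa, at 12.5 ± 3.75 TPM, were neighbours in this order and did not differ beyond their spread, and the same held for Rars2 at 12.2 ± 2.68 TPM and Yars2 at 12.2 ± 3.58 TPM. At the top of the cytosolic order Nars, at 92.4 ± 39.7 TPM, and Eprs, at 75.1 ± 6.68 TPM, also lay within the spread of Nars. The SD over days includes the course of each gene. Nars was above Eprs on each of days 2 to 8 and below it on each of days 10 to 18. Lars2 stood at 5134 ± 1079 TPM, which no other member approached on any day.

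**Figure D1:**
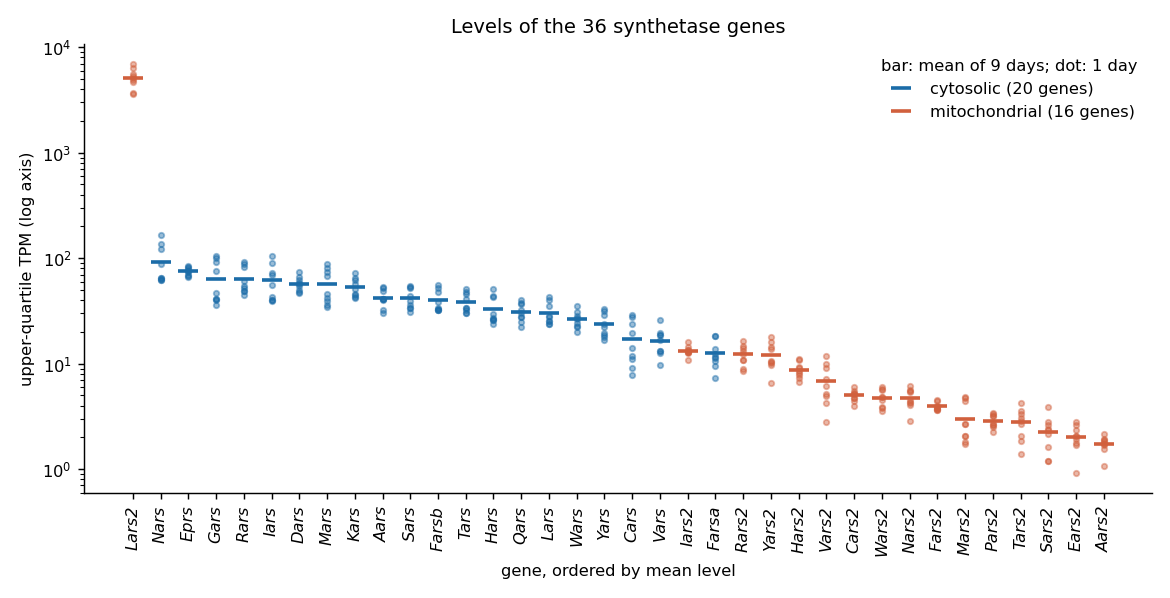
Level of each of the 36 synthetase genes on each of the 9 days (dots) and the mean over days (bars), in upper-quartile TPM on a log axis, cytosolic genes in blue and mitochondrial genes in orange. Lars2 sits at 3624 to 6877 TPM, the cytosolic genes at 7.27 to 167 TPM and the other mitochondrial genes at 0.928 to 17.9 TPM.

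To ask how the enzymes followed differentiation, a straight line in day was fitted to the summed counts of every gene with edgeR, and the slope was expressed as the fitted log2 change from day 2 to day 18. All 20 cytosolic genes fell with an adjusted p under 0.05, beside 26.1% of the 15659 genes tested that fell and 28.3% that rose. Their median fitted log2 change was -1.01, where the median over all genes tested was 0.05. Of the 16 mitochondrial genes 4 fell, 3 rose and 9 did not pass the test, with a median of -0.17 (-0.18 without Lars2).

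Cars, the cysteine enzyme, had the steepest fall of the cytosolic set. It was highest on day 2, at 28.9 TPM, had a median of 14.1 TPM and was lowest on day 18, at 7.89 TPM. Its fitted change was -2.10 (SE 0.17, adjusted p = 2.05e-05), or 4.3-fold lower on day 18. Gars, the glycine enzyme, started at 104 TPM on day 2, had a median of 46.7 TPM and ended at 35.7 TPM. Its fitted change was -1.85 (SE 0.19, adjusted p = 5.8e-05). Both genes were higher on each of days 2 to 8 than on any later day.

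Iars and Nars, for isoleucine and asparagine, fell nearly as far. Iars had 106 TPM on day 2, a median of 55.9 TPM and its lowest level of 39.7 TPM on day 10, with a fitted change of -1.63 (SE 0.19, adjusted p = 9.54e-05). Its TPM carries some uncertainty, because the mean transcript length that RSEM assigned to it varied from 2486 to 4131 bases between profiles. Nars had 167 TPM on day 2 and between 62.4 and 65.0 TPM on each of days 10 to 18, with a fitted change of -1.58 (SE 0.22, adjusted p = 0.000248). Nars has 1 annotated transcript, so its length did not vary.

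The smallest falls were those of Eprs, Dars and Wars, for glutamate and proline, aspartate and tryptophan. Eprs was highest on day 4 at 84.2 TPM and lowest on day 10 at 65.6 TPM, with a median of 75.0 TPM, and its fitted change was -0.40 (SE 0.09, adjusted p = 0.00433). Dars ranged from 47.3 to 73.6 TPM and changed by -0.57 (SE 0.14, adjusted p = 0.00536). Wars ranged from 20.1 to 35.6 TPM and changed by -0.66 (SE 0.17, adjusted p = 0.00865). Wars was the only cytosolic gene whose call was lost in an alternative of the line, with an adjusted p of 0.0584 when day 2 was left out. The other 13 cytosolic genes had fitted changes between -1.21 for Mars, the methionine enzyme, and -0.88 for Aars, the alanine enzyme. Their levels fell from between 16.9 and 91.2 TPM on day 2 to between 7.27 and 48.9 TPM on day 18, with Vars at the low end on day 2, Farsa at the low end on day 18 and Rars at the high end on both days.

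**Figure D2:**
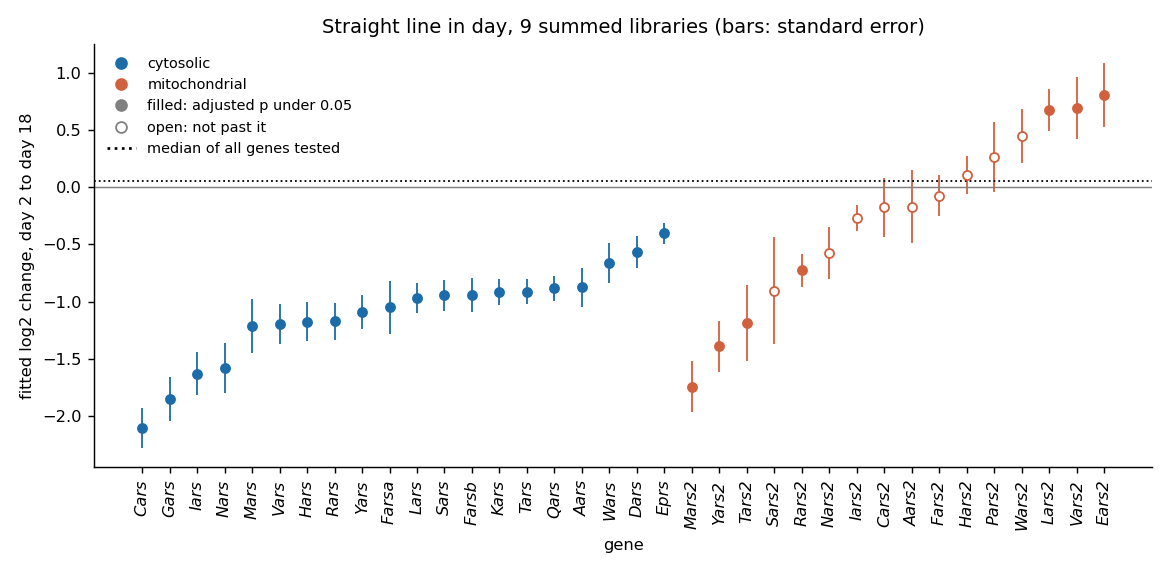
Fitted log2 change from day 2 to day 18 of the 36 genes, with bars of 1 standard error, filled where the adjusted p was under 0.05 and open where it was not, and the median of all genes tested as a dotted line at 0.05. All 20 cytosolic genes lie between -2.10 and -0.40 and are filled, and the mitochondrial genes lie between -1.74 and 0.81.

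The fall ran through each class of cytosolic enzyme. The 8 genes of the multi-synthetase complex (Dars, Eprs, Iars, Kars, Lars, Mars, Qars and Rars) had a median fitted change of -0.94 and the 12 outside it -1.07. The 10 enzymes counted under the class I catalytic fold had a median of -1.13 and the 10 under the class II fold -0.94. Eprs, which serves both glutamate and proline, was counted under class I only. The 11 genes known as Atf4 targets (Aars, Cars, Eprs, Gars, Iars, Mars, Nars, Sars, Tars, Wars and Yars) had a median of -1.09. The 9 not listed as such had a median of -0.97. These classes overlap, and the difference between any of them was not tested.

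The courses of the cytosolic genes were alike in time. Relative to day 2, the median log2 CPM of the 20 genes was at -0.23, -0.28, -0.53, -0.76 and -0.88 on days 4, 6, 8, 10 and 12. It then stayed between -0.95 and -0.88 on days 14 to 18. In log2 CPM each of the 20 genes was below its day 2 value on every later day. This did not hold in TPM, which also depends on the transcript length that RSEM assigned. In TPM, Aars, Mars and Vars were highest on day 6 and Eprs and Yars on day 4. Vars had 25.7 TPM on day 6 beside 16.9 TPM on day 2. On day 8, the proliferation markers summed to 283 TPM, inside their range on days 2 to 6. The single markers differed on that day. Ccnb1, Cdk1 and Bub1, at 64.2, 66.9 and 19.8 TPM, were each below their lowest level of days 2 to 6. Mki67 was inside its early range and Top2a above it. The synthetases were then at a median of -0.53 relative to day 2 alone. On days 10 and 12 the marker sum was at 148 and 92.9 TPM. A day is a single library, the marker sum and the median are unlike measures, and which course moved first was not tested. Over the 9 days the 190 pairs of cytosolic genes had a median Pearson r of 0.94 (0.708 to 0.996), while the 105 pairs of mitochondrial genes without Lars2 had a median r of 0.0987 (-0.824 to 0.943). These correlations share 9 libraries and a common trend in day and are descriptions only.

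**Figure D3:**
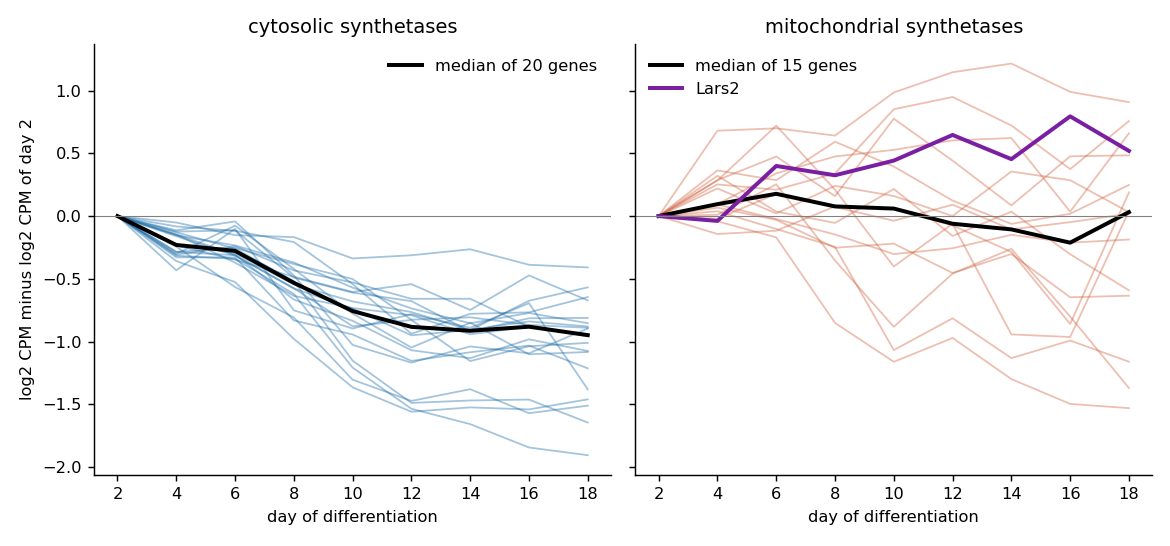
Log2 CPM of each synthetase minus its value on day 2, against day of differentiation, for the 20 cytosolic genes (left) and the 16 mitochondrial genes (right), with the median in black and Lars2 in purple. The cytosolic median falls to -0.88 by day 12 and then stays level, and the median of the 15 other mitochondrial genes stays between -0.21 and 0.18.

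The days were next split into 3 groups of 3 libraries, a comparison added after the courses had been seen. From days 2 to 6 to days 8 to 12, 19 of the 20 cytosolic genes fell, beside 13.6% of all genes that fell and 17.3% that rose. The 1 not called was Eprs, with a log2 change of -0.20 (adjusted p = 0.115). This count rested on single days, being 10 without day 2, 9 without day 10 and 10 without day 12. From days 8 to 12 to days 14 to 18 edgeR called 0 of the 20, beside 0 of all genes (0%), although 7 of the 20 and 2557 of all genes had an unadjusted p under 0.05. DESeq2 called 0 of the 20 in that step and 570 of all genes. Of the mitochondrial genes, Iars2, Mars2 and Yars2 fell and Vars2 rose in the first step (1 to 4 calls when 1 day was left out), and 0 of 16 were called in the second by either tool, with 1, Mars2, at an unadjusted p under 0.05 by edgeR. Between days 2 to 6 and days 14 to 18 directly, all 20 cytosolic genes fell by edgeR, beside 24.4% of all genes, and of the mitochondrial genes 5 fell and 1, Lars2, rose, beside 26.7% of all genes that rose. The rise of Lars2 between these groups was 0.46 on the log2 scale (adjusted p = 0.0497). All 20 cytosolic genes had lower CPM on every one of days 14 to 18 than on any of days 2 to 6, which held for 29.6% of all genes.

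The mitochondrial genes that fell were Mars2, Yars2, Tars2 and Rars2. Mars2, the mitochondrial methionine enzyme, had its highest level of 4.79 TPM on day 4, a median of 2.67 TPM and its lowest level of 1.73 TPM on day 18, with a fitted change of -1.74 (SE 0.22, adjusted p = 0.00016). Days 2 to 6 were all at or above 4.46 TPM, and no later day was above 2.69 TPM. Yars2, the tyrosine enzyme, started at 17.9 TPM, reached a low of 6.52 TPM on day 10 and ended at 10.3 TPM, and its fitted change was -1.39 (SE 0.23, adjusted p = 0.000553). Rars2, the arginine enzyme, was highest on day 4 at 16.5 TPM and lowest on day 18 at 8.44 TPM, with a fitted change of -0.73 (SE 0.14, adjusted p = 0.00179). Tars2, the threonine enzyme, rested on 62 to 284 counts a day and ranged from 1.39 to 4.27 TPM. Its fitted change was -1.19 (SE 0.33, adjusted p = 0.0117), and the adjusted p was 0.0533 without day 18.

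The genes that rose were Lars2, Ears2 and Vars2, and only the call of Lars2 was kept in every alternative of the line that holds the gene, 19 in all. Ears2, the mitochondrial glutamate enzyme, was lowest on day 2 at 0.928 TPM, had a median of 2.05 TPM and was highest on day 12 at 2.78 TPM. Its fitted change was 0.81 (SE 0.28, adjusted p = 0.0307), past the threshold in 16 of 20 alternatives. The adjusted p was 0.165 when day 2 was left out. It was 0.0658 without replicate 2, 0.0653 without day 14 and 0.0651 with no normalization factor. Vars2, the valine enzyme, was lowest on day 8 at 2.82 TPM and highest on day 12 at 11.8 TPM. Its fitted change was 0.69 (SE 0.27, adjusted p = 0.0499), past the threshold in 8 of 20 alternatives. The 3 lane profiles of a day differed by a median of 29.7% (coefficient of variation) in the TPM of Vars2, and RSEM assigned it mean lengths from 1169 to 4246 bases.

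The other 9 mitochondrial genes had fitted changes from -0.90 for Sars2 (SE 0.47, adjusted p = 0.129) to 0.45 for Wars2 (SE 0.23, adjusted p = 0.129). Nars2 was nearest to the threshold, at -0.58 (SE 0.23, adjusted p = 0.0515), and it was past it in 10 of 20 alternatives, more often than Vars2. Fars2 and Hars2 had values near 0, at -0.08 and 0.11 with standard errors of 0.18 and 0.17. A miss of the threshold does not show that these genes held their level, since their standard errors were up to 0.47. Apart from Lars2, 5 of the 15 mitochondrial genes were lower on all of days 14 to 18 than on all of days 2 to 6 and 2 were higher, beside 29.6% and 32.6% of all genes.

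Enzymes for the same amino acid were set side by side as 16 pairs, with Eprs paired with both Ears2 and Pars2. The fitted change of the cytosolic gene was the lower one in 13 of 16 pairs. The exceptions were Mars with Mars2 (-1.21 and -1.74), Tars with Tars2 (-0.91 and -1.19) and Yars with Yars2 (-1.09 and -1.39). The widest gaps were those of Cars with Cars2 (-2.10 and -0.18), Vars with Vars2 (-1.19 and 0.69) and Lars with Lars2 (-0.97 and 0.67). The difference within a pair was not tested. Over the 15 pairs without Lars2, the median ratio of cytosolic to mitochondrial TPM was 9.9 on day 2 and 5.79 on day 18, and Cars with Cars2 went from 7.3 to 1.5. Summed over the sets, the cytosolic genes held 14.6 times the TPM of the 15 mitochondrial genes on day 2 and 8.69 times on day 18.

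Lars2 encodes the mitochondrial leucine enzyme and lies at chr9:123276058-123371782 on the plus strand in NCBIM37, the build of the gene models used. In order of day its level was 3624, 3705, 5101, 4709, 4910, 6351, 5352, 6877 and 5574 TPM. Days 2 and 4 were the lowest, day 16 was the highest, and each of the other days lay between 4709 and 6351 TPM, with an SD over lane profiles of 21.0 to 52.9 TPM. The fitted log2 change was 0.67 (SE 0.18, adjusted p = 0.00982), or 1.59-fold higher on day 18. In the alternatives of the line it stayed between 0.55 and 0.84, with an adjusted p of at most 0.0362. The early and late days did not overlap, with 5101 TPM as the highest early and 5352 TPM as the lowest late value. In CPM days 2 to 6 were also all below days 14 to 18, which held for 32.6% of all genes. In the split into 3 groups neither step was called, with log2 changes of 0.34 (adjusted p = 0.159) and 0.12 (adjusted p = 0.758).

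Its share of all counts was lowest on day 4, at 0.888% (95% Wilson interval 0.885% to 0.891%), and highest on day 16, at 1.50% (1.50% to 1.51%). These intervals cover counting error only. Lars2 held between 2.7 and 8.8 times the TPM of the other 35 synthetases summed, and between 85.1 and 273 times that of Lars, the cytosolic leucine enzyme. Lars went the other way, starting at 42.6 TPM and ending at 23.8 TPM, with a fitted change of -0.97 (SE 0.13, adjusted p = 0.000187). By mean level Lars2 ranked between 4 and 7 of all genes under every scaling and subset of the days tried.

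**Figure D4:**
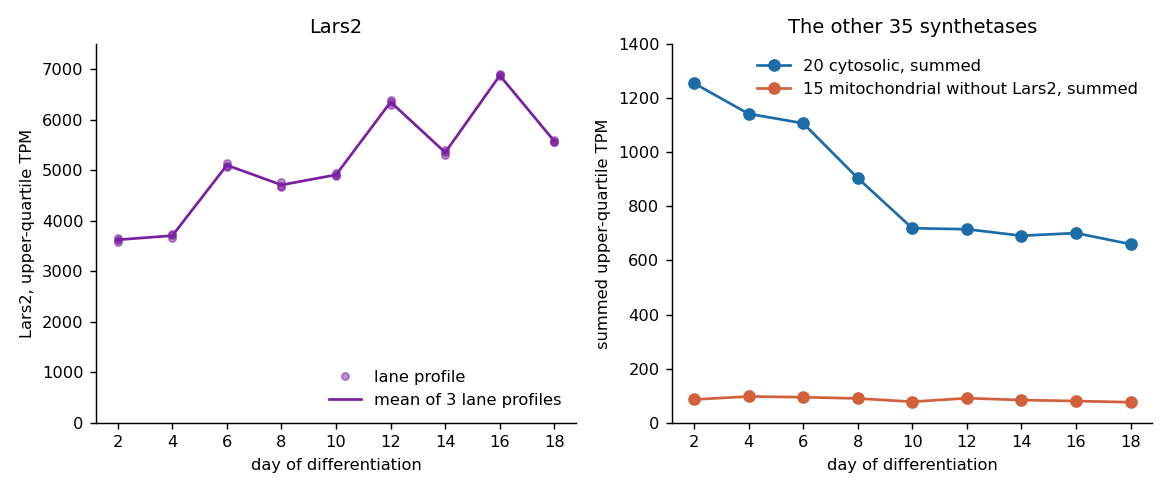
Left, Lars2 in upper-quartile TPM against day, with each lane profile as a dot and their mean as a line. Right, the summed upper-quartile TPM of the 20 cytosolic genes, which goes from 1255 to 660.2 between day 2 and day 18, and of the 15 mitochondrial genes without Lars2, which goes from 86.1 to 76.0.

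The transcript behind this level was examined in the reference. Lars2 has 1 annotated transcript of 3881 bases, its counts were whole numbers, and no exon of another gene overlaps it. A blastn search of that transcript against NCBIM37 found 43 matches of at least 50 bases outside the gene, on 17 chromosomes. All 43 lay within bases 3009 to 3817 of the transcript, after the coding part, which runs from base 187 to base 2895. The longest was 244 bases at 97.5% identity, at chr12:79451917-79452160. With the mitochondrial chromosome there was no match at this setting, and with short seeds the longest was 19 bases. The transcript was not compared with the ribosomal DNA repeat, and whether reads of ribosomal RNA or of other transcripts entered the Lars2 count, and so its TPM, was not tested. The 2 mitochondrial ribosomal RNAs, mt-Rnr1 and mt-Rnr2, had fitted changes of 0.34 (SE 0.15, adjusted p = 0.0783) and 0.33 (SE 0.19, adjusted p = 0.161), and their log2 CPM had a Pearson r of 0.74 and 0.71 with that of Lars2 over 9 days. The r of Lars2 with the log2 total count was 0.267.

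Genes whose course was most like that of a member were sought among those with a mean of at least 10 TPM. For Lars2, among 7618 genes, they were Hp1bp3, Rab13, Tmem167b, Gtl3 and Sumo3, with Pearson r from 0.95 to 0.963 over 9 days. For the cytosolic genes, by mean r among 7599 genes, they were Pgk1, Ddx39, Ssu72, Nolc1 and Hspd1, with r from 0.961 to 0.963. Each of those 5 fell, by fitted changes from -0.88 for Ssu72 to -3.02 for Ddx39. Their fall follows from the choice, since they were picked for a course like that of genes that fell. The median r between Lars2 and the 20 cytosolic genes was -0.838.

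The scaffold genes of the multi-synthetase complex fell with the enzymes. Eef1e1 was at 42.1 TPM on the first day and 7.25 TPM on the last, and it changed by -2.91 (SE 0.28, adjusted p = 3.91e-05), a larger fitted fall than that of any cytosolic synthetase. Aimp2 changed by -1.20 (SE 0.24, adjusted p = 0.00172) and Aimp1 by -0.87 (SE 0.17, adjusted p = 0.00146). So 3 of 3 fell, beside 26.1% of all genes. Of 5 cytosolic elongation factors, which bring charged tRNA to the ribosome and move it along, 4 fell, beside 26.1% of all genes, led by Eef1d, a subunit of the exchange factor of Eef1a1, at -1.79 (SE 0.17, adjusted p = 4.36e-05). Eef2, the translocation factor, was the one not called, at -0.18 (SE 0.15, adjusted p = 0.313).

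On the mitochondrial side, 3 of 8 translation factors fell, beside 26.1% of all genes, and none of the others was called. With the 27 profiles fitted singly, which counts lanes as samples, 4 fell and 1 rose. With no replicate block 5306 fell and 5448 rose in that fit, of 13835 genes tested. The 3 were Tufm at -0.78, Gfm1 at -0.84, which are elongation factors, and Gfm2 at -0.88, which acts in ribosome recycling. Mitochondria make glutaminyl-tRNA by way of glutamyl-tRNA, through an amidotransferase of Qrsl1, Gatb and Gatc. Gatb, listed as Pet112l in the older annotation, was between 1.80 and 2.18 TPM on days 2 to 8 and between 5.61 and 6.27 TPM from day 12 on, and it rose by 2.13 (SE 0.24, adjusted p = 8.92e-05) and Gatc by 0.58 (SE 0.14, adjusted p = 0.00457), while Qrsl1 was at -0.74 (SE 0.32, adjusted p = 0.071). Mtfmt, which formylates the initiator methionyl-tRNA, fell by 0.90 on the log2 scale (SE 0.30, adjusted p = 0.0277).

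**Figure D5:**
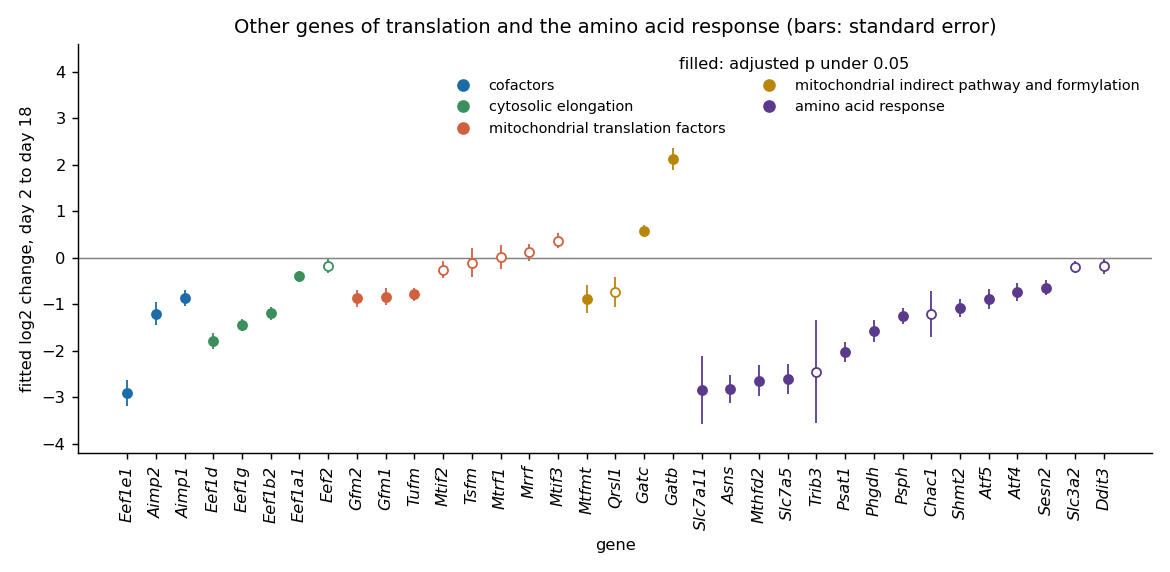
Fitted log2 change from day 2 to day 18 of other genes of translation and of the amino acid response, with bars of 1 standard error, filled where the adjusted p was under 0.05. The 3 cofactors and all 15 genes of the amino acid response lie below 0, and Gatb at 2.13 is the highest point.

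Of 15 genes of the amino acid response, which Atf4 drives in amino acid shortage, 11 fell, beside 26.1% of all genes, and none rose, with a median fitted change of -1.26. Asns, which makes asparagine, had 92.2 TPM at the start, no more than 22.5 TPM from day 10 on, and a fitted change of -2.82 (SE 0.30, adjusted p = 6.55e-05). Slc7a5, an importer of large neutral amino acids, changed by -2.60 (SE 0.32, adjusted p = 0.000137), and Mthfd2, an enzyme of mitochondrial one-carbon metabolism, by -2.65 (SE 0.34, adjusted p = 0.000149). Psat1 and Phgdh, enzymes of serine synthesis, changed by -2.03 and -1.58. Atf4 itself changed less, by -0.74 (SE 0.20, adjusted p = 0.00952), and its call was lost in 1 of 20 alternatives, with an adjusted p of 0.072. The 4 genes not called were Ddit3 at -0.18, Slc3a2 at -0.20, Chac1 at -1.21 (adjusted p = 0.0618) and Trib3 at -2.45 (adjusted p = 0.0838), the last with a mean of 0.478 TPM. Exons of Ddit3 overlap those of Mars in the annotation. Of 14 genes of this list with a promoter, 4, or 28.6%, held the same letters as above, namely Asns, Trib3, Chac1 and Slc7a11.

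Some members share exon sequence with a neighbouring gene in the annotation. Hars and Hars2 overlap each other at their starts, and Aars, Cars, Farsb, Vars, Yars, Ears2, Iars2 and Nars2 each overlap another gene. The expected counts as deposited were exact whole numbers in every profile in 14 of 20 cytosolic and 13 of 16 mitochondrial genes, Mars and Lars2 included, so RSEM showed no divided read there at the decimals given.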

How the data were processed

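RNA-seq of 9 days of culture was analysed, with 3 lane profiles a day that carry 1 barcode. The authors amplified total RNA with NuGEN Ovation, made TruSeq libraries and deposited, per gene and profile, the expected counts, TPM and FPKM of RSEM 1.2.8 with Bowtie 0.12.9 on NCBIM37 (versions from the submitters' processing notes, while the study's methods name another RSEM version). RSEM divides reads between isoforms and genes, which can move the TPM and FPKM of genes with many isoforms. The expected counts were summed over the lane profiles of each day and rounded. The lane profiles of a day differed over the 36 genes by no more than sampling noise (chi-square per degree of freedom 0.858 to 1.22). A straight line in day was tested with edgeR 4.0.16 (quasi-likelihood, factors from the upper quartile, low counts dropped by filterByExpr at a minimum count of 10, Benjamini-Hochberg adjustment over all genes tested, threshold 0.05) in R 4.3.3. The fit was also run on simulated counts with flat or straight courses, drawn with the spread estimated around a spline. That run cannot vouch for the test on curved courses. The slope times 16 days is the fitted log2 change. Each profile's TPM were scaled so that its upper quartile among non-zero values equalled the average upper quartile of the 27 profiles. Courses and correlations used log2 CPM with a prior count of 2. Groups of days were compared in the same way with 3 groups.

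The named genes were all members, the fixed lists of translation, amino acid response and cell markers, mt-Rnr1 and mt-Rnr2 for their level, and the 5 genes most alike in course. The members and lists were chosen with earlier results of these data known. Replicate numbers of the profiles did not pair samples across days, since profiles with 1 number deviated with a mean correlation of 0.00599. Alternatives were DESeq2 1.42.0, other factors, filters, a natural spline, single profiles, a replicate block, and each replicate or day left out. Promoters came from RefSeq (GRCm38.p6), matched by symbol, and the transcript was searched with blastn 2.17.0.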

Additional observations from a re-analysis of the deposited data

How the results depend on the processing

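The count of cytosolic synthetases that followed day was 19 or 20 in every alternative tried, and the direction of all 20 held. The 16 mitochondrial genes gave 7 calls, and 11 (7 fell, 4 rose) when the 27 profiles were fitted singly, both with no replicate block and with the replicate block. Those fits count the lane profiles of a day as separate samples although they carry 1 barcode. They treat lanes as replicates, and their calls do not rest on replicate cultures. Both fits are among the alternatives counted for Vars2 and Nars2. In those fits more of all genes were called too. With no block 5306 fell and 5448 rose of 13835 genes tested, and with the block 5341 fell and 5540 rose of 14244. The replicate numbers do not pair the samples, since they only name lanes. With no normalization factor, which shifts the median of all genes from 0.05 to -0.07, 6 mitochondrial genes fell and 1, Lars2, rose. Of the 15659 genes tested 4659 fell and 3806 rose in that fit. Values near 0 changed sign. Fars2 was at 0.0274 in the spline and between -0.2085 and 0.0737 with 1 replicate or day left out, Aars2 at 0.0299 in the spline and between -0.6001 and 0.1093 with 1 replicate or day left out, Cars2 at 0.21 in the spline, and Hars2 at -0.0168 with no normalization factor. None of these was called in the straight line. From days 2 to 6 to days 8 to 12, the 20 cytosolic genes gave between 9 and 19 calls when 1 day was left out, and the 4 mitochondrial calls became 2 with no filter beyond 1 count, 2 without any 1 replicate and between 1 and 4 when 1 day was left out. From days 8 to 12 to days 14 to 18, leaving out 1 day gave 0 or 1 cytosolic call, the 1 when day 12 was left out. Apart from the lanes counted as samples in the fits of 27 profiles, the cause of these differences was not tested. Sars2, Tars2, Pars2, Mars2, Aars2 and Fars2 had fewer than 100 counts on their lowest day, and of these Mars2 and Tars2 were called.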
